A study of Mus musculus with 6 samples.

Results

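Genes for the subunits of the mitochondrial respiratory chain were followed in 6 mouse livers that differed in genotype and in NTBC regimen. Members were chosen by name alone: every gene whose symbol, mapped from the accession of its probe, starts with Nduf, with Sdh and a letter from a to d, with Uqcr, with Atp5, or with Cox and a digit from 4 to 8. The rule found 95 of the 18342 genes named on the array. Of these, 84 are subunit genes, with 37 in complex I, 4 in complex II, 8 in complex III, 18 in complex IV and 17 in complex V. The other 11 are assembly factors (Ndufaf1 to Ndufaf7 and Sdhaf1 to Sdhaf4), which build complexes I and II without staying in them, and they are described apart. In all, 93 members (82 subunits) passed the filter on dim probes and were tested; 91 were well above background on all 6 arrays.

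The respiratory chain sits in the inner mitochondrial membrane. Electrons from NADH enter at complex I and those from succinate at complex II, which is also an enzyme of the citric acid cycle. They pass through ubiquinone to complex III, by cytochrome c to complex IV, and there reach oxygen. Protons pumped by complexes I, III and IV drive complex V, the ATP synthase. In hepatocytes the chain carries urea synthesis, gluconeogenesis and fatty acid oxidation. The rule covers nuclear genes only; the mitochondrial genome encodes further core subunits. Some names do not match the present view of the proteins: Ndufa4 is now placed in complex IV, Ndufab1 is also the mitochondrial acyl carrier protein, and Cox7a2l joins complexes III and IV into supercomplexes.

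All mice were on a BL6 background and carried Fah_del_tm1Mgo, a deletion in the gene of fumarylacetoacetate hydrolase, which completes the breakdown of tyrosine. FCR mice also carried Rag2_del_tm1Fwa and a deletion of the common gamma chain (tm1Wjl), and such mice lack T, B and NK cells. NTBC, which blocks an earlier step of tyrosine breakdown and so protects the liver, was given in drinking water at 7.5 µg/ml as the full dose. Each genotype gave 1 liver on continuous NTBC (100%; healthy liver for Fah, normal liver for FCR), 1 from the regimen labelled off and 1 from the regimen labelled 2xoff/on, which repeats withdrawal and resupply. Withdrawn livers were labelled tumour in Fah mice and inflamed liver in FCR mice, so tumour tissue and genotype cannot be told apart, and the labels do not settle the NTBC phase in which a withdrawn liver was taken.

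RNA of each liver was read on 1 single-colour Agilent array, with 43379 spots; 60.5% to 74.5% of them gave signal well above background. Levels are log2 processed signal after subtraction of the 75th percentile of that array, so that 1 unit is a 2-fold change; levels of different probes are not set against each other. That percentile was 363 to 374 on the 100% arrays and the FCR off array, 722 on the FCR 2xoff/on array, and 811 and 890 on the tumours. Slide 1 held the 100% and off arrays and slide 2 both 2xoff/on arrays, so that this regimen and the slide cannot be told apart. Il2rg, the common gamma chain gene, was well above background on 3 of 3 Fah arrays (-3.40 to -1.94) and on 0 of 3 FCR arrays (-7.74 to -6.70). Rag2 was well above background on 0 of 6 arrays, and Fah on all 6, where the place of its probe relative to the deletion is not known. The tissue label was checked with hepatocyte markers: all 6 measured of 8 listed were well above background on every array, and Alb (albumin) lay between 8.79 and 10.32. The number of arrays limits the precision, and the labels do not say whether arrays of 1 group stand for separate animals, so p-values measure only the spread between these arrays.

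Subunit signal was high in every liver and varied by array. The median over the 82 tested subunits was 5.24 in healthy Fah liver, 5.43 in normal FCR liver, 4.51 in the off tumour, 6.01 in off inflamed liver, 5.51 in the 2xoff/on tumour and 5.80 in 2xoff/on inflamed liver. The off tumour was thus the lowest of the 6 and the off inflamed liver the highest. With quantile normalization, which gives all arrays 1 distribution, the off tumour (5.08) and healthy Fah liver (5.12) were lowest and the 2xoff/on tumour (5.91) was highest. With the main scaling, complexes I, III, IV and V kept that order at both ends: their medians ran from 4.39 to 5.79, 5.27 to 6.71, 3.64 to 5.72 and 5.31 to 6.83. Complex II did not, with its highest median, 4.76, in healthy Fah liver and its lowest values in the off livers, 3.39 and 3.54. The plot of levels by complex shows this shift of whole groups of genes.

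**Figure D1:**
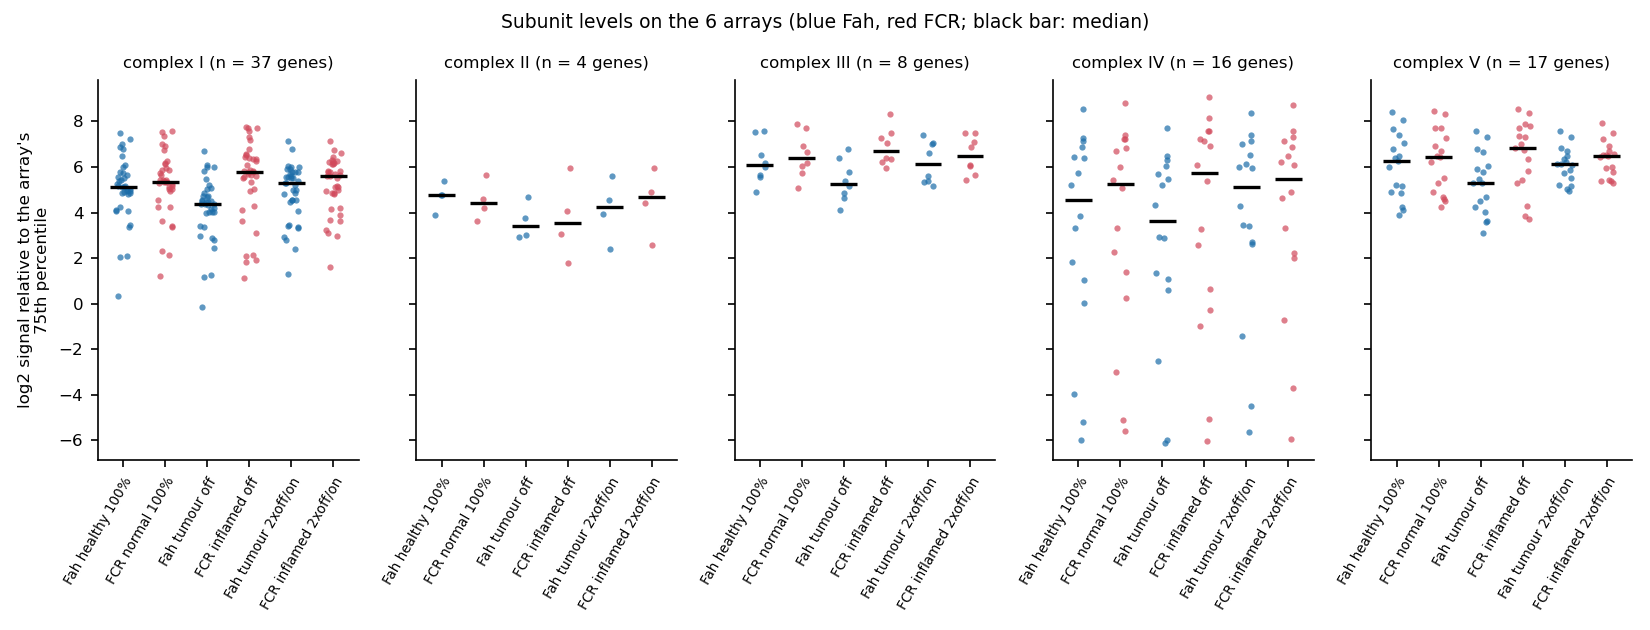
Level of each tested subunit gene (points) on each of the 6 arrays, in log2 units above the 75th percentile of that array, by complex; blue points are Fah, red points FCR, black bars medians. In complexes I, III, IV and V the off tumour has the lowest median and the off inflamed liver the highest.

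Fah livers had lower subunit signal than FCR livers over the 3 regimens, but no single gene passed the test. In the fit of genotype and regimen over all 6 arrays, the log2 difference Fah minus FCR had a median of -0.62 over the subunits, and 77 of 82 lay below 0. The median was -0.62 in complex I, -0.14 in complex II, -0.69 in complex III, -0.65 in complex IV and -0.58 in complex V, and -0.31 over the 11 assembly factors. Of the members, 0 passed limma's test (adjusted p under 0.05; background 0.293% of 15382 genes tested), and 6 subunits (7.32%), all lower, had an unadjusted p under 0.05, against 11.7% of all genes in either direction. The median of all genes tested was -0.11 in the same comparison.

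This shift moved with signal level. Among all 1201 tested genes with a mean level of 4 or more, a limit chosen after the data were seen, the median Fah minus FCR was -0.43, against -0.62 for the subunits, 66 of 82 of which had such a level. Of these bright genes, 13.1% had an unadjusted p under 0.05. With quantile normalization the subunit median was -0.19 with 60 of 82 below 0, and that of the bright genes -0.03. With the authors' deposited values, which were equalised between arrays, the subunit median was -0.22. The size of the subunit median thus depended on the scaling, while its sign did not.

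The 3 regimens, each with 1 array a genotype and so no test of its own, differed in size. On continuous NTBC the median Fah minus FCR over subunits was -0.20, with 72 of 82 below 0. It was -1.29 in the off livers (77 below) and -0.29 in the 2xoff/on livers (75 below). Bright genes in general had medians of -0.11, -0.91 and -0.29. In the off livers the median of all genes, by level, went from 0.05 between -2 and 0 to -0.81 between 4 and 5 and -1.15 above 7. With quantile normalization the subunit medians were -0.13, -0.54 and 0.09, against -0.05, -0.09 and 0.06 for bright genes, so that a difference remained in the off livers and the 2xoff/on difference changed sign. The plot against level shows both scalings.

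**Figure D2:**
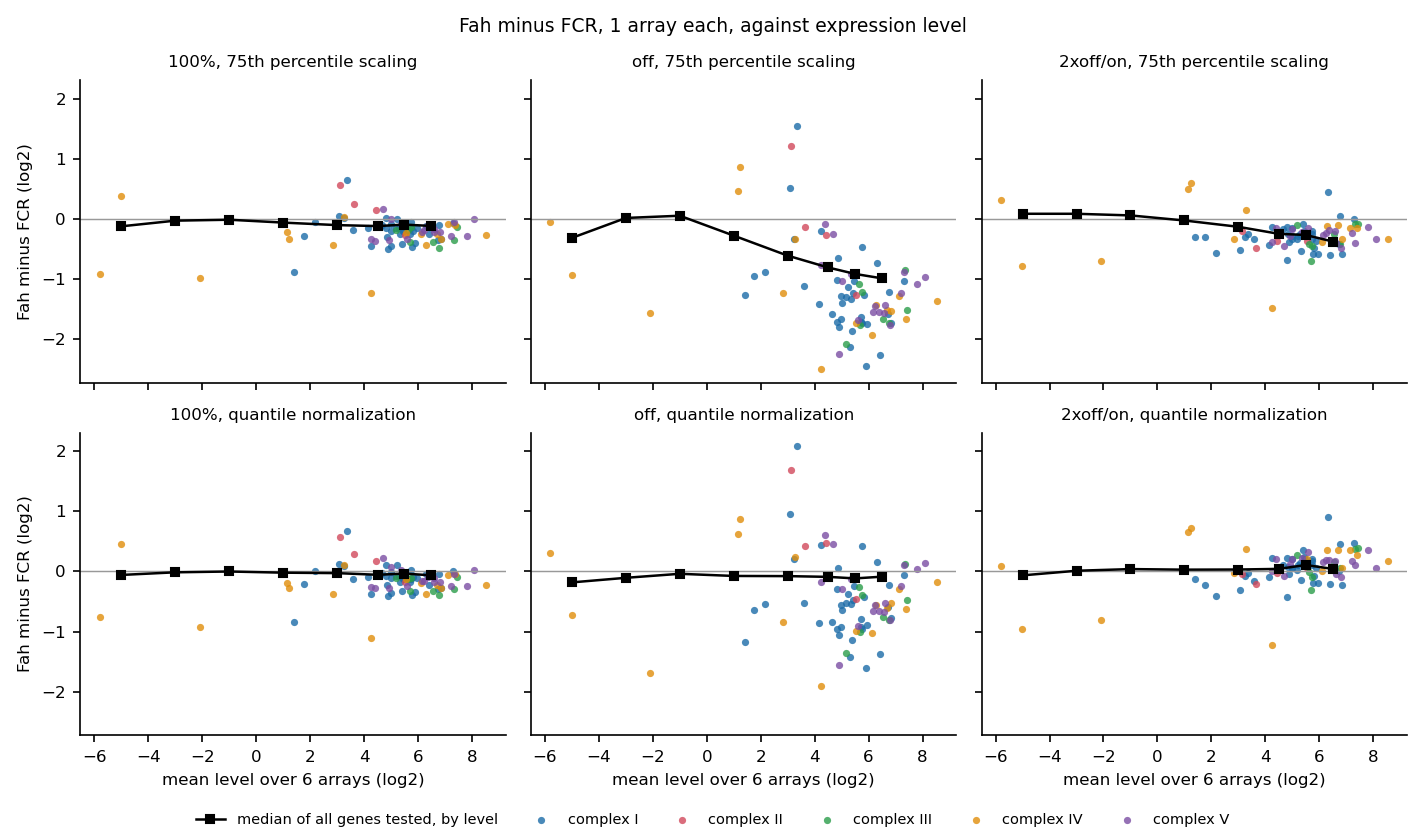
Fah minus FCR (log2 difference, 1 array minus 1 array) for each tested subunit against its mean level, by regimen (columns) and scaling (rows); the black line joins the medians of all genes tested by level, without the dimmest and brightest bins. With 75th percentile scaling the off pair falls with level, reaching -0.99 between 6 and 7, and the subunits lie with or below the line; with quantile normalization the line is near 0 and the subunit median is -0.54 in the off pair.

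Subunits lower in Fah than in FCR liver in each of the 3 regimens numbered 66 of 82 (background 24.6% of all genes tested, and 48.3% of the bright ones), including all 8 of complex III and 16 of 17 of complex V. With quantile normalization 19 of 82 did so (23.2%, background 19.3%), 3 of them in complex III and 2 in complex V. With the main scaling 0 subunits were higher in Fah in all 3 regimens (background 13.1% of all genes tested, and 3.5% of the bright ones). With quantile normalization 2 were (2.44%, background 16.3% and 15.7%).

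Cox7c, a small structural subunit of complex IV, had the largest difference between genotypes. Its level was 3.85 in healthy Fah and 5.09 in normal FCR liver, 2.87 in the off tumour and 5.37 in off inflamed liver, and 3.40 in the 2xoff/on tumour and 4.89 in 2xoff/on inflamed liver. All 3 Fah arrays lay below all 3 FCR arrays. The difference was -1.74 ± 0.34 (log2 difference ± SE, n = 3 and 3; limma, adjusted p = 0.135), and -1.41 with quantile normalization. It missed the threshold over the 6 arrays. Without either 100% array the difference was -2.00, without either off array -1.37 and without either 2xoff/on array -1.87. In this fit an array left without its partner of the same regimen adds nothing to the genotype difference. Each of these values thus rests on 4 arrays, the same 4 whichever array of the pair was left out. On continuous NTBC, where size only can be given, it was -1.24, past the 2-fold limit. No other of the 92 members measured there passed it; 4.89% of 14058 genes were lower by that limit in Fah and 2.94% higher.

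After Cox7c, the largest differences below 0 were those of Cox6a2, the muscle form of subunit 6a (-1.08 ± 0.35, adjusted p = 0.331), and of Ndufa5, an accessory subunit of the complex I arm that takes up NADH (-1.08 ± 0.47, adjusted p = 0.426). Values above 0 included those of Sdha, the flavoprotein that oxidises succinate (0.52 ± 0.34, adjusted p = 0.553), and of Cox6b2 (0.37 ± 0.32, adjusted p = 0.643). Among the core subunits, the Rieske iron-sulfur protein Uqcrfs1 had -0.95 ± 0.38 and the complex I core subunit Ndufs3 -0.71 ± 0.35. The complex III core proteins Uqcrc1 and Uqcrc2 had -0.61 and -0.56. Cox4i1, Cox5a and Cox5b, which surround the catalytic core of complex IV, had -0.51, -0.64 and -0.63. The ATP synthase subunits Atp5a1 and Atp5b (alpha and beta, the catalytic hexamer) had -0.45 and -0.44, Atp5c1 (gamma) -0.58 and Atp5d (delta) -0.18. For Atp5b the other 2 probes had 0.43 and 0.61. None of these passed the test, and with quantile normalization Cox4i1 had 0.00, Atp5a1 0.05 and Atp5b 0.07.

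Tumours were next set against inflamed FCR liver, 2 arrays each at the same regimens, sharing 4 arrays with the comparison above. The subunit median was -0.81 (all genes -0.13, bright genes -0.59), and 77 of 82 lay below 0. By complex it was -0.82, -0.31, -0.90, -0.83 and -0.73 for I to V. Limma called 0 members (background 0.208%); 8 subunits (9.76%), all lower, had an unadjusted p under 0.05, against 9.18% of all genes and 15.3% of bright ones. The largest values below 0 were those of Cox7c (-2.00 ± 0.47, adjusted p = 0.173), Ndufa4 (-1.44 ± 0.55) and Ndufa5 (-1.41 ± 0.55); values above 0 included those of Sdha (0.50) and of Cox6b2 (0.73, but -0.42 without off inflamed liver and -0.28 without the 2xoff/on tumour). Without inflamed replicate 2, that of 2xoff/on, 6 members fell: Atp5e, Cox7c, Ndufa4, Ndufa5, Ndufa9 and Ndufb9. With slide or regimen as a block, Cox7c was the 1 member that fell. The shares of all genes called in these alternative fits are not given here, so the counts do not show whether members stand out. Quantile normalization gave a subunit median of -0.23 and the authors' values -0.24.

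The series' design text names another comparison, the 2 tumours against FCR 100% and FCR 2xoff/on. Its subunit median was -0.63 (all genes -0.15, bright genes -0.55), with 81 of 82 below 0. Limma called 0 members and 0 genes of 15175 (background 0%); 2 subunits (2.44%), both lower, had an unadjusted p under 0.05, against 11.5% of all genes. Cox7c (-1.86 ± 0.38), Ndufb9 (-1.09) and Uqcrfs1 (-1.06) had the largest values below 0, and Cox7a1, at 0.68, was the only subunit above 0; it was at -0.31 without normal FCR liver and at -0.13 without the 2xoff/on tumour. Without the FCR 2xoff/on array 3 members fell: Cox7c, Ndufb9 and Sdha. The share of all genes called in that fit is not given here. With quantile normalization the subunit median was -0.02, with 34 of 82 above 0.

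Withdrawal was then read within each genotype. The off tumour lay below healthy Fah liver for 80 of 82 subunits, with a median log2 difference of -0.81, whereas the off inflamed liver lay above normal FCR liver for 58 of 82, with a median of 0.29. Every subunit of complexes I, II, III and V was lower in the off tumour; the 2 that were higher were Cox6a2 and Cox7a1 in complex IV. In 2xoff/on livers the medians were near 0 (0.00 in Fah and 0.07 in FCR). Bright genes had -0.69 and 0.10 in the off livers, and -0.47 and -0.33 in the 2xoff/on livers, where the subunits lay above them. With quantile normalization the off medians were -0.05 (46 of 82 below 0) in Fah and 0.31 in FCR, and the 2xoff/on medians 0.56 and 0.41.

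**Figure D3:**
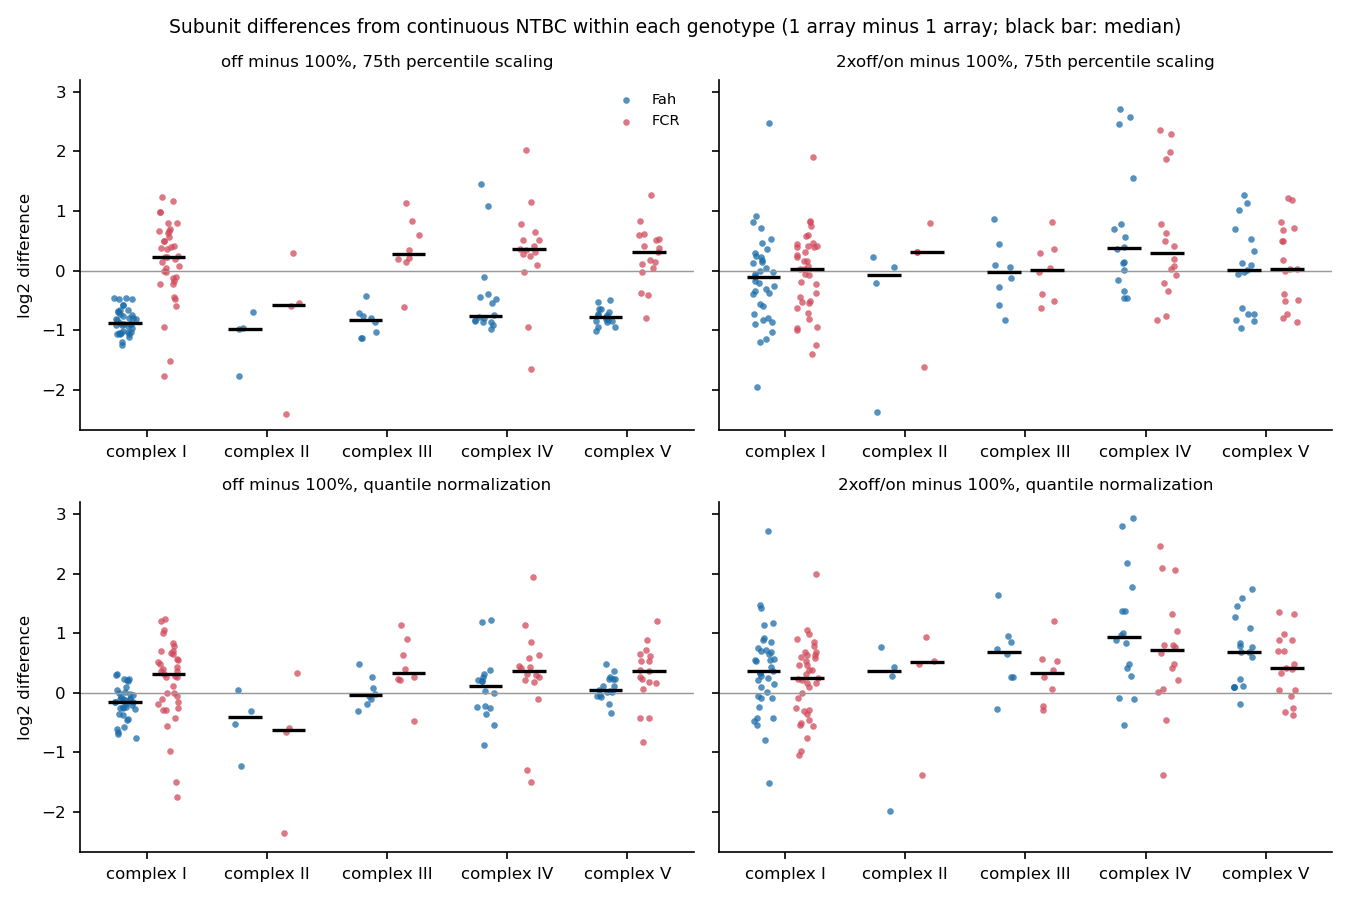
Log2 difference of each tested subunit between a withdrawn liver and the 100% liver of its genotype (1 array minus 1 array), by complex, regimen (columns) and scaling (rows); blue Fah, red FCR, black bars medians. The off tumour lies below 0 in every complex with 75th percentile scaling (subunit median -0.81) and near 0 with quantile normalization (-0.05).

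In the fit of 4 groups, tumours against healthy Fah liver had a subunit median of -0.43 (all genes -0.08, bright genes -0.56) and inflamed against normal FCR liver 0.11 (all genes 0.04, bright genes -0.10). Limma called 0 members in either, where 5.06% and 1.76% of all genes were called; at an unadjusted p under 0.05 there were 3 members (3.23%, against 18.6% of all genes) in the first and 2 (2.15%, against 14% of all genes) in the second. Sdha had -2.07 ± 0.62 in the first (adjusted p = 0.1) and -2.01 ± 0.62 in the second (adjusted p = 0.169). It fell in both with slide as a block, and in both without 2xoff/on inflamed liver, where Ndufaf1 also fell in the first; in the first it fell too without off inflamed liver. The difference between the 2 withdrawal comparisons had a subunit median of -0.58 (bright genes -0.48) and called 0 members and 0 genes of 15382 (background 0%); 0 members reached an unadjusted p under 0.05, against 2.16% of all genes. With quantile normalization that median was -0.04, and tumours against healthy liver had 0.28.

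The regimens were compared over both genotypes in the additive fit, 2 arrays a regimen, which share the 100% arrays. Most subunits did not pass in either withdrawal comparison, and those that passed moved in opposite directions. Off against continuous NTBC had a subunit median of -0.26 (bright genes -0.27) and called 2 members: 1 fell (background 5.31% of genes) and 1 rose (background 11.7%). Regimen 2xoff/on against continuous NTBC had a median of 0.04 (bright genes -0.40) and called 7: 3 fell (background 7.37%) and 4 rose (background 12.3%). Regimen 2xoff/on against off had a median of 0.28 (bright genes -0.08) and called 2, both higher (background 0.689%), with 0 lower (background 0.104%). Against 93 members tested, the counts in the first 2 comparisons lie below the background shares. With quantile normalization off against continuous NTBC called Sdha alone, which fell, as did 504 of all 15382 genes. Regimen 2xoff/on against continuous NTBC then had a subunit median of 0.53 and called 12 members, 9 higher and 3 lower. Of all 15382 genes, 1550 were called higher and 1113 lower in that fit. Shares of all genes are not given for the following fits without 1 array. The counts also turned on single arrays: off against continuous NTBC called 0 members without off inflamed liver, 1 without either 100% array and 4 without either 2xoff/on array. Regimen 2xoff/on against continuous NTBC called 4 without the 2xoff/on tumour and 14 without either off array.

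Sdha, the catalytic subunit of complex II, fell in both regimens. Its level was 4.77 in healthy Fah and 4.21 in normal FCR liver, 3.00 in the off tumour and 1.79 in off inflamed liver, and 2.39 in the 2xoff/on tumour and 2.59 in 2xoff/on inflamed liver. Both 100% arrays lay above all 4 withdrawn ones. The log2 difference was -2.09 ± 0.41 for off (limma, adjusted p = 0.0138) and -1.99 ± 0.41 for 2xoff/on (adjusted p = 0.015), n = 2 and 2 in each, and -1.79 and -1.68 with quantile normalization. A second Sdha probe had -2.10 and -1.29. With the probes of a gene averaged, Sdha was still called in off but not in 2xoff/on. The off call rests on off inflamed liver: without it the value was -1.58 (adjusted p = 0.107); the 2xoff/on call was lost without the 2xoff/on tumour (-1.45, adjusted p = 0.131).

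The other subunits of complex II did not pass. In off against continuous NTBC, Sdhb, the iron-sulfur subunit, had -0.76 ± 0.37 (adjusted p = 0.198), the membrane anchor Sdhc -0.79 ± 0.36 (adjusted p = 0.179) and the anchor Sdhd -0.20 ± 0.43 (adjusted p = 0.799). In complex I, Ndufa10, an accessory subunit, had -1.27 ± 0.38 (adjusted p = 0.055). The core genes Ndufs1, Ndufs3, Ndufs7, Ndufs8, Ndufv1 and Ndufv2 of complex I had values from -0.75 to -0.12.

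Ndufa9, an accessory subunit near the ubiquinone site, and Ndufaf1, a factor that helps assemble the membrane arm of complex I, fell in the 2xoff/on livers. Ndufa9 was at 5.43 and 5.41 on the 100% arrays (Fah, then FCR), 4.38 and 6.10 on the off arrays and 3.47 and 4.16 on the 2xoff/on arrays, both of which lay below the other 4. Its difference from continuous NTBC was -1.60 ± 0.48 (adjusted p = 0.0491), and was not called without healthy Fah liver (-0.99), without the 2xoff/on tumour (-1.69, adjusted p = 0.163) or without 2xoff/on inflamed liver (-1.52, adjusted p = 0.16). Ndufaf1 was at 3.16 and 3.13, then 1.93 and 2.50, then 1.38 and 1.77, so that all withdrawn arrays lay below both 100% ones. It fell by 1.57 ± 0.35 (adjusted p = 0.0181), a call lost without healthy Fah liver (-1.32, adjusted p = 0.24) or the 2xoff/on tumour (-1.51, adjusted p = 0.0906).

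In all, 4 complex I and IV genes rose in the 2xoff/on livers. Ndufa11, an accessory subunit of the complex I membrane arm, was at 0.32 and 1.21 on the 100% arrays, -0.16 and 1.11 on the off arrays and 2.80 and 3.11 on the 2xoff/on arrays. Cox6b1, which bridges the monomers of the complex IV dimer on the side facing cytochrome c, was at 1.83 and 2.28, then 1.35 and 2.59, then 4.30 and 4.63. In both genes the 2xoff/on arrays stood clear of the other 4, which overlapped. Ndufa11 rose by 2.19 ± 0.37 over continuous NTBC (adjusted p = 0.00694) and by 2.48 ± 0.37 over off (adjusted p = 0.0303), and a second probe gave 1.99 and 2.43. Cox6b1 rose by 2.41 ± 0.37 (adjusted p = 0.00509) and 2.49 ± 0.37 (adjusted p = 0.0303). Both calls against off were lost without off tumour (adjusted p = 0.103 for each) or without off inflamed liver (adjusted p = 0.296 and 0.261). Cox6b2, the testis form of subunit 6b, had 2.14 ± 0.40 over off (adjusted p = 0.0623).

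Cox7a1 and Cox6a2, the forms of subunits 7a and 6a best known from heart and skeletal muscle, were higher on all 4 withdrawn arrays. Cox7a1 passed in 2xoff/on only, a regimen that cannot be told apart from slide 2. Cox7a1 was at 0.01 and 0.23 on the 100% arrays (Fah, then FCR), 1.10 and 0.64 on the off arrays and 2.72 and 2.22 on the 2xoff/on arrays, and these pairs do not overlap. It rose by 2.35 ± 0.36 in 2xoff/on (adjusted p = 0.00494), against 0.75 ± 0.36 in off (adjusted p = 0.198). Cox6a2 was at -3.99 and -3.00, then -2.53 and -0.98, then -1.41 and -0.71, above background on every array. It rose by 1.74 ± 0.43 in off (adjusted p = 0.0303) and 2.43 ± 0.43 in 2xoff/on (adjusted p = 0.00848). The off call was lost in each fit without 1 of the 100% or off arrays (1.38 without off inflamed liver, adjusted p = 0.166) and with quantile normalization (1.57, adjusted p = 0.0591). The 4 rises in 2xoff/on held in all fits without 1 array.

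**Figure D4:**
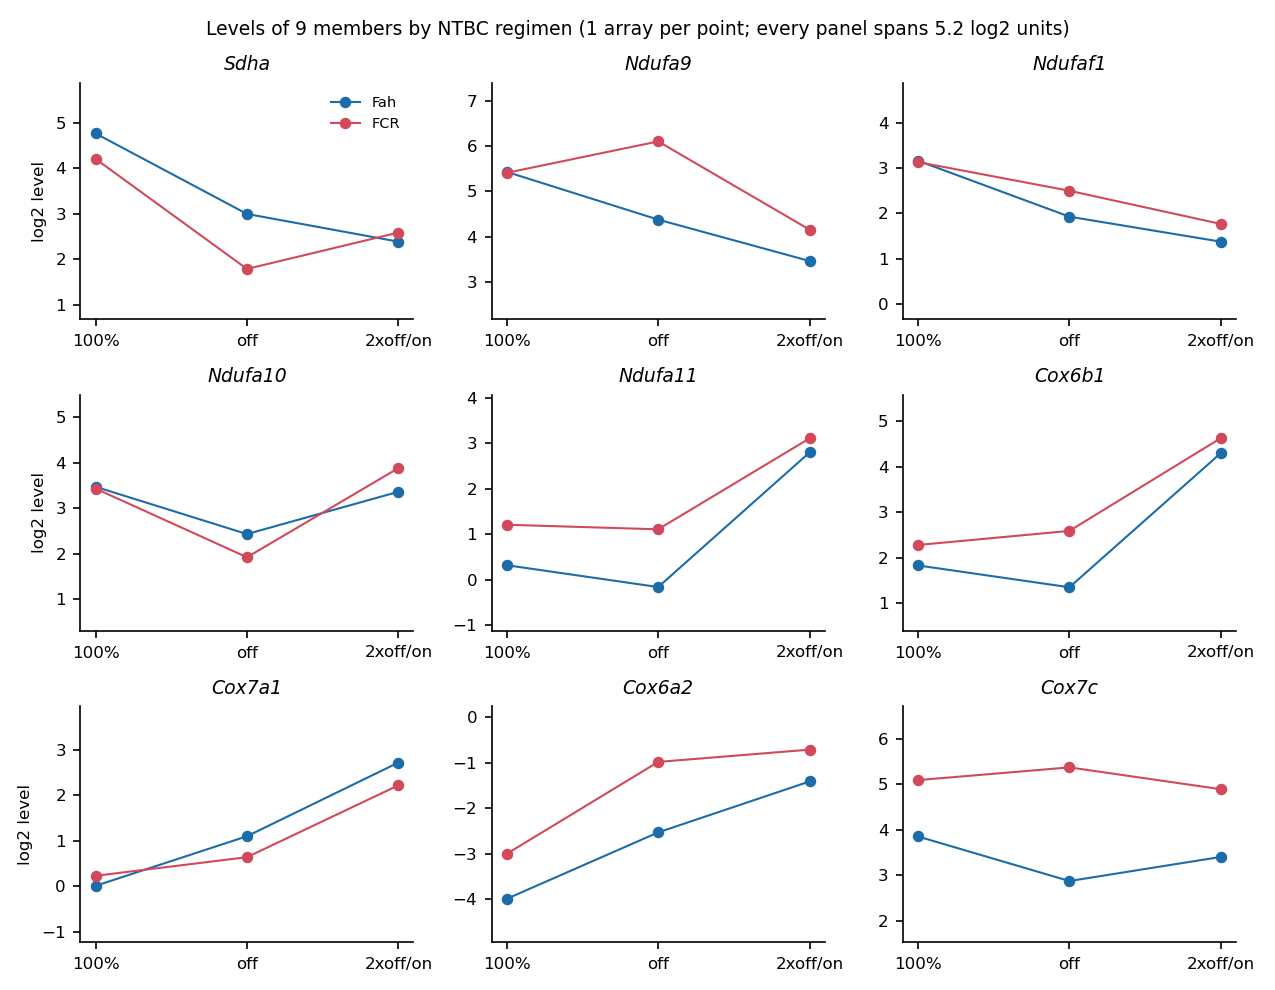
Level (log2, with the 75th percentile of each array at 0) of 9 members by NTBC regimen, 1 array per point, Fah blue and FCR red. Sdha lies lower on all 4 withdrawn arrays; Ndufa11 and Cox6b1 are high on the 2xoff/on arrays only; all Fah points of Cox7c lie below its FCR points.

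The partner isoforms did not pass the test. In 2xoff/on against continuous NTBC the liver forms Cox7a2 and Cox6a1 had 0.43 and -0.12, and the Cox7a-like Cox7a2l 0.08. With quantile normalization these were 0.91, 0.62 and 0.35 (adjusted p = 0.102, 0.159 and 0.387), so that the scaling turned the sign of Cox6a1. Of the isoforms of subunit 4, Cox4i1 had 0.04 (0.69 with quantile normalization); the hypoxia-linked Cox4i2 was well above background on 3 arrays only. Cox8a had -0.35, and 0.25 with quantile normalization; Cox8b, a muscle form, was above background on 4 arrays, and the testis forms Cox7b2 and Cox8c on 0. Cox7b had 0.78. The genes Atp5g1, Atp5g2 and Atp5g3, whose different precursors give the same ring subunit c of complex V, had 0.41, 0.60 and -0.80; with quantile normalization Atp5g2 rose by 0.99 (adjusted p = 0.0469). As a measured fact beside Cox7a1 and Cox6a2, of 7 muscle markers Myh4 and Mb were above background on 0 arrays. The share above it was 14.3% and 42.9% on the 100% arrays (Fah, then FCR). It was 28.6% and 57.1% on the off arrays, and 42.9% and 57.1% (3 and 4 of 7) on the 2xoff/on arrays. The log2 of the summed signal of the 7 was -2.92 and -0.94 on the 100% arrays, -1.94 and -2.31 on the off arrays and -1.30 and -2.11 on the 2xoff/on arrays. Acta1, the actin of skeletal muscle, was at -4.58 and -5.00 on the 100% arrays, -2.28 and -3.70 on the off arrays and -1.90 and -3.79 on the 2xoff/on arrays. It rose in 2xoff/on (1.95 ± 0.53, limma, adjusted p = 0.0379) and had 1.80 ± 0.53 in off (adjusted p = 0.0533). It was the 1 muscle marker of 4 tested that passed (background of rises 12.3% in 2xoff/on). Myh1, a muscle myosin, was at -5.66 and -5.52 on the 100% arrays, -6.40 and -5.02 on the off arrays and -3.81 and -3.74 on the 2xoff/on arrays. Tnnt3, also tested, was at -5.61 and -5.28, then -6.53 and -4.78, then -5.37 and -5.27, so the markers did not move as 1. Ckm (muscle creatine kinase) was at -1.28 in normal FCR liver, where it made up most of the summed signal, and at or below -5.20 elsewhere. The part of muscle RNA in these rises was not tested.

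Promoters of some members that moved, and of isoform partners, are shown because they differ in the motifs of 2 nuclear factors known for respiratory chain genes, NRF1 and GABPA. RefSeq windows (GRCm38.p6) matched 79 of the 95 members, and each sequence gives the 170 bases before the start, 5′ to 3′; Cox6a2 is not among them. Capitals mark GCGCATG (NRF1) or CCGGAAG (GABPA), on either strand; runs longer than 7 are overlapping matches of both strands. The places are Sdha, chr13:74350241-74350410 (minus strand), Ndufa11, chr17:56717592-56717761 (plus strand), Cox6b1, chr7:30626115-30626284 (minus strand), Cox6a1, chr5:115348959-115349128 (minus strand), Cox7a2, chr9:79759854-79760023 (minus strand), Cox7a1, chr7:30184001-30184170 (plus strand).
Sdha: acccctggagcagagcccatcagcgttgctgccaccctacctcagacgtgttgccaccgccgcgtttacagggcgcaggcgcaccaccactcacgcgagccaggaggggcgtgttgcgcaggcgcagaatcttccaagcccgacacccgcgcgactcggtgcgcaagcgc
Ndufa11: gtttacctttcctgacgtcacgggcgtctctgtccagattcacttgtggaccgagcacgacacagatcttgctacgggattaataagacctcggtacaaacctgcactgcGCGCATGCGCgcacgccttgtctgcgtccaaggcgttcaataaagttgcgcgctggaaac
Cox6b1: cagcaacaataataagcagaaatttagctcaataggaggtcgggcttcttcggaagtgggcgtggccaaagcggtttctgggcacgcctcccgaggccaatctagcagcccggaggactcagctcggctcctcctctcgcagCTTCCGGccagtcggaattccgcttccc
Cox6a1: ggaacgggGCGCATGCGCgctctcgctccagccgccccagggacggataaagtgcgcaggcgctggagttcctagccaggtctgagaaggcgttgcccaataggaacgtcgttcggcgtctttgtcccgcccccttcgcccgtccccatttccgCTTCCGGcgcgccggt
Cox7a2: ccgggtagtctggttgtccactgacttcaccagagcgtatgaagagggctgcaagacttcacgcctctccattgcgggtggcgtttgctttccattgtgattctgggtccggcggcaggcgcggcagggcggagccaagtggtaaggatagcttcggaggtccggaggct
Cox7a1: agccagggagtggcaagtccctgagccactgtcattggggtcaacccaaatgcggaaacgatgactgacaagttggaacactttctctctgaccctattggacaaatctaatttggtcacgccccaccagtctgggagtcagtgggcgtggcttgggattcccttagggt

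In the 250 bases before the start, GCGCATG stood in 11 of 79 member genes (13.9%, against 3.68% of 27025 genes with a window) and CCGGAAG in 15 (19.0%, against 7.83%). AAGATGG, the core of a YY1 motif, stood in 1 (1.27%, against 5.18%), and AAGGTCA, the single-site letters of ERR alpha, in 5 (6.33%, against 4.70%), both strands counted. Of the genes that rose in 2xoff/on, Ndufa11 held the NRF1 letters 57 and 60 bases before its start and Cox6b1 the GABPA letters 28 bases before; Cox7a1 held none of the 4. Of the genes that fell, Ndufaf1 held the GABPA letters in 1 place and Sdha and Ndufa9 none of the 4. Cox6a1 held both, and Cox7a2 neither. These matches are a description of the windows shown.

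Probes of 1 gene did not always move together, which bears on the values above. For 4340 genes with several probes above background on all arrays, the range between probes in the difference from the 100% array had a median of 0.23 in the off tumour, 0.90 in off inflamed liver, and 0.73 and 0.71 in the 2xoff/on livers (Fah, then FCR). It was over 1 for 9.01%, 45.4%, 37.9% and 37.3% of genes. Over the 20 members with several probes the medians were 0.10, 0.42, 0.31 and 0.36, and 0, 1, 2 and 3 members were over 1. In Atp5b, 3 probes differed by 2.83 in off inflamed liver: the probe used lay at 8.44 in normal and 8.55 in off inflamed FCR liver, while the others were at 6.18 and 4.05, and at 3.72 and 1.00. Ndufaf4 had ranges of 1.82 and 2.61 in the 2xoff/on livers and Sdhaf2 1.39 and 1.32. The part of the probes' place in their transcripts was not tested.

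**Figure D5:**
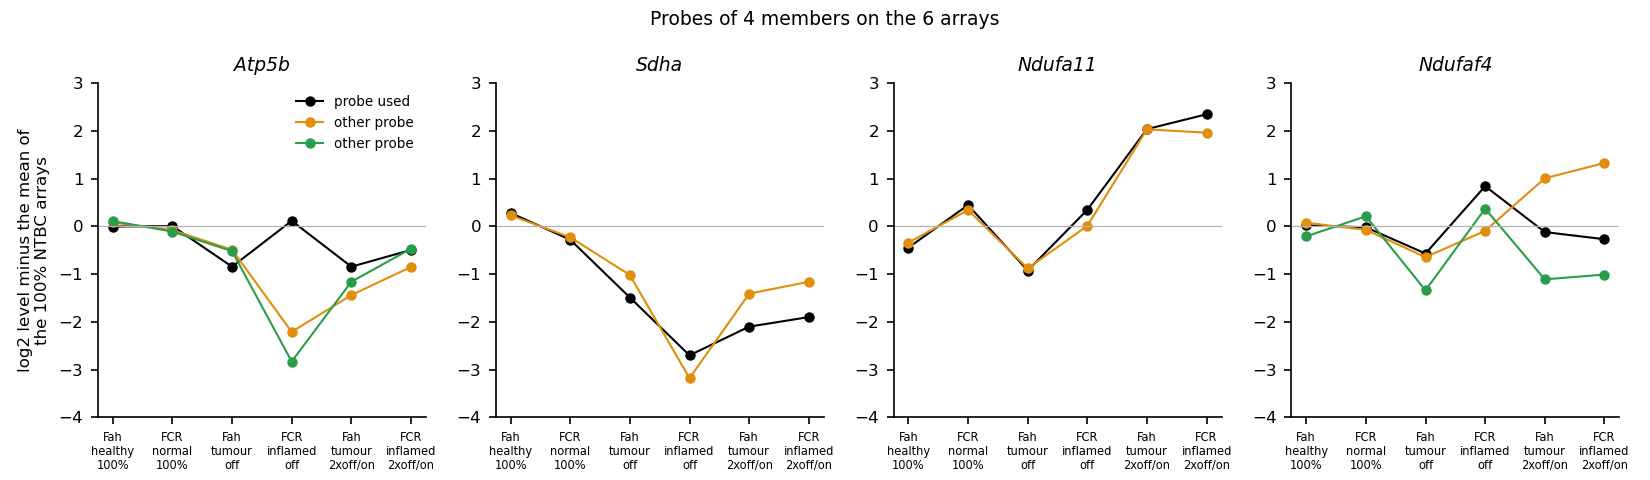
Level of every probe of Atp5b, Sdha, Ndufa11 and Ndufaf4 on the 6 arrays, as log2 difference from the mean of the 100% arrays; black lines are the probes used. The 2 probes of Ndufa11 and of Sdha move in the same direction, and those of Atp5b part on the off inflamed array. Those of Sdha differ by 0.52 to 0.73 in the differences from the 100% array of the same genotype.

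Genes around the chain were read from lists of single genes picked by hand. Only the mitochondrial ribosome genes were taken by the start of their symbol, like the members. Of 7 carriers outside the complexes, 2 fell in 2xoff/on against continuous NTBC (background 7.37%) and 0 rose: Gpd2, the mitochondrial glycerol phosphate dehydrogenase (-1.50 ± 0.35, adjusted p = 0.0225), and Etfdh, which passes electrons from fatty acid oxidation to ubiquinone (-1.43 ± 0.41, adjusted p = 0.0434). In the same comparison, 3 of 12 regulators fell (background 7.37%). They were Gabpa (-2.01 ± 0.40, limma, adjusted p = 0.0128), Ppargc1b, a coactivator of mitochondrial genes (-1.35 ± 0.37, adjusted p = 0.0391), and Tfam, which packs mitochondrial DNA (-1.31 ± 0.34, adjusted p = 0.0323). Ppargc1b also fell in off (-2.19 ± 0.37, limma, adjusted p = 0.00794), the only regulator that did (background 5.31%). Its level was 1.08 and 2.06 on the 100% arrays and -0.86 to 0.30 on the withdrawn ones. Gabpa was at 1.55 and 1.81 on the 100% arrays, at 0.35 and 1.55 on the off arrays and at -0.35 and -0.31 on the 2xoff/on arrays.

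Ucp2, an inner membrane carrier named for uncoupling, rose by 2.72 ± 0.46 in off (adjusted p = 0.00773) and 3.90 ± 0.46 in 2xoff/on (adjusted p = 0.00204), from -1.23 and -1.98 on the 100% arrays to between 0.61 and 2.61 on the 4 withdrawn arrays. It was the only one of 7 tested carriers of that list to pass (background of rises 11.7% in off and 12.3% in 2xoff/on). Ucp1 and Ucp3 were not above background on any array. Of 31 tested assembly genes beyond the members, Uqcc3, a complex III factor, fell in 2xoff/on (-1.45 ± 0.39, adjusted p = 0.0377; background 7.37%) and 0 passed in off with limma (3 at an unadjusted p under 0.05, against 31.7% of all genes). Of 77 mitochondrial ribosome genes, Mrps27 fell in off (-1.54 ± 0.43, adjusted p = 0.0448; background 5.31%) and Mrps18b rose in 2xoff/on (1.44 ± 0.35, adjusted p = 0.0261; background 12.3%). Of 12 tested citric acid cycle genes 0 passed limma's test in either (unadjusted p under 0.05 for 3 in off and 1 in 2xoff/on; 1 rose in each with quantile normalization); the largest value was that of Ogdh in off (-1.78 ± 0.63, adjusted p = 0.0932). Fah against FCR called 0 of the 146 genes of these 6 lists in limma (1 higher and 6 lower at an unadjusted p under 0.05).

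Of 14 lists of cell type markers, some moved with the same regimens and others did not, and a selection is given. In bulk liver fewer cells of a type and less RNA per cell cannot be told apart. The log2 of the summed hepatocyte marker signal was 10.8 and 10.6 on the 100% arrays and 9.27 to 10.1 on the withdrawn arrays; 2 of 6 fell in off (background 5.31%) and 1 in 2xoff/on (background 7.37%), and 0 in either with quantile normalization (2 at an unadjusted p under 0.05 in each). The sum for 4 cycling-cell markers was -0.88 and -0.71 on the 100% arrays, 3.78 and 4.26 in tumours and 2.06 and 2.93 in inflamed liver. For 5 stellate cell and fibroblast markers it was 3.23 and 3.13, then 6.64 and 5.83, then 5.10 and 4.46. The sum for 4 endothelial markers did not follow the regimens. It was 3.06 and 3.14 on the 100% arrays (Fah, then FCR), 2.21 and 4.43 on the off arrays and 3.03 and 3.4 on the 2xoff/on arrays. The part of these cell types in the subunit values was not tested.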

How the data were processed

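The files are Agilent Feature Extraction 10.7.3.1 output per the file headers (10.5 per the submitters' processing notes). They give a processed intensity per spot, from which the software had taken the background and which was not equalised between arrays, per the file headers. A table of log2 values by the authors, with medians of 6.46 to 6.48 on all arrays, was deposited too; the sources used here do not give its normalization.

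Control spots and outlier spots were dropped and spots of a probe averaged. The log2 signal was centred on the 75th percentile of each array. Probe accessions were matched to a RefSeq table (GRCm38.p6) for names only: 26912 of 41145 probes were named, and the probe with the highest mean stood for its gene. The filter kept genes with signal well above background on 2 or more arrays. Tests were run in limma 3.58.1 (R 4.3.3; lmFit, and eBayes with trend), two-sided, with Benjamini-Hochberg adjustment over all genes tested in a comparison and a threshold of 0.05. Models had 4 group means, or genotype plus regimen, over 6 arrays, with 2 residual degrees of freedom each; a lone array was taken to vary like the others. The comparison of the design text used its 4 arrays. These models were also run on simulated data. Only tumour against inflamed liver, Fah against FCR and the comparison of the design text were scored there. The planted changes were larger than those of the called members, and the regimen comparisons and the alternatives were not scored.

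Members, gene lists and tests were chosen with earlier results of these data known. By rule, the text names called members, the 3 largest differences each way in a comparison, core subunits, isoform pairs, and from each list around the chain the called genes and the largest values; it gives a selection of these, and 1 gene that the rule names is not reported here. Atp5e, Ndufaf4, Sdhaf2 and the probes and promoters shown were chosen after their values were seen. Replicate numbers follow sample order. Alternatives were the authors' values, quantile normalization, scaling to the array median, normexp background correction (offset 50), a stricter and no filter on dim probes, averaged probes per gene, slide or regimen as a block, no trend in eBayes, and leaving out each array. The level limit of 4, the differences by regimen or genotype under other scalings, the agreement of probes and the promoter motifs were added after seeing the data.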

Additional observations from a re-analysis of the deposited data

Results flagged for a closer look

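The medians of complex I and complex III, taken over the differences of single genes from the 100% array, had opposite signs on withdrawal in the 2 genotypes. For complex I the median was -0.88 in the off tumour and -0.11 in the 2xoff/on tumour, against 0.23 and 0.03 in the inflamed FCR livers. For complex III it was -0.83 and -0.03 in the tumours, against 0.28 and 0.0043 in inflamed liver, so that the signs in 2xoff/on rest on values near 0. In the off livers the signs were opposite elsewhere too (Fah, then FCR). Complex IV had -0.77 and 0.36, complex V -0.775 and 0.31, and bright genes in general -0.69 and 0.10. Complex II was below 0 in both. In 2xoff/on, complex II also had opposite signs, with -0.08 in Fah and 0.31 in FCR. Complexes IV and V and the bright genes each had the same sign in both genotypes there. With the off and 2xoff/on medians averaged within each genotype, Fah minus FCR was -0.62 for complex I and -0.57 for complex III on the log2 scale. These averages join the larger off differences with 2xoff/on differences near 0. Taken instead as the median level on each array, the 2xoff/on tumour lay above healthy Fah liver, at 5.29 against 5.12 for complex I and 6.11 against 6.10 for complex III. The difference was not tested as a median; the test of the difference gene by gene called 0 members with limma, and 0 members had an unadjusted p under 0.05. With quantile normalization both genotypes were above 0 in 2xoff/on, at 0.36 and 0.25 for complex I and 0.69 and 0.33 for complex III (Fah, then FCR), and the medians of the difference per gene were -0.14 and -0.00.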

How the results depend on the processing

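Scaling set the size of the shifts of whole complexes. With quantile normalization and with the authors' values, the subunit median was -0.23 and -0.24 where tumour was set against inflamed liver, 0.28 and 0.26 (above 0, against -0.43) where it was set against healthy liver, -0.04 and -0.06 for the difference of the withdrawal comparisons, and -0.02 and -0.04 for the comparison of the design text; the cause was not tested. Tumour against inflamed liver gave -0.29 within 2xoff/on, and Fah against FCR -1.29 within off. Without 1 array, the median ranged from -0.79 (without off inflamed liver) to 0.23 (without the off tumour) for off against continuous NTBC, and from -0.30 (without the off tumour) to 0.87 (without off inflamed liver) for 2xoff/on against off, so that both changed sign without the off tumour.

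Counts of called members were small. For most of these alternatives the share of all genes called is not given, so the counts do not show whether members stand out. Slide as a block called 1 in tumour against inflamed, tumour against healthy and inflamed against normal liver, and regimen as a block 1 in the first. Normexp called 1 for Fah against FCR and 8 for 2xoff/on against off. Quantile normalization called 1, 12 and 1 for off against continuous NTBC, 2xoff/on against continuous NTBC and 2xoff/on against off; the authors' values called 1 and 11 in the first 2, and the array median 11 in the second. The mean of a gene's probes and eBayes without a trend each called 0 for 2xoff/on against off. Without 1 array the counts were 0 to 6 for tumour against inflamed, 0 to 2 for tumour against healthy and for inflamed against normal, 0 to 1 for Fah against FCR, 0 to 4 for off against continuous NTBC, 4 to 14 for 2xoff/on against continuous NTBC, 0 to 5 for 2xoff/on against off and 0 to 3 for the design text. No call on a single gene changed direction under these alternatives. Over single genes and alternatives, 687 values kept their side of the threshold, 20 values that were not called changed sign, 34 passed only under an alternative and 27 no longer passed. Signal over background limited Cox4i2, Cox8b, Cox7b2 and Cox8c.

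The labels give no replicate numbers; Fah and FCR livers share regimens, and the fit of genotype plus regimen and regimen as a block use that.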
